A study of Mus musculus with 10 samples.

Results

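The genes described here are the D cyclins *Ccnd1*, *Ccnd2* and *Ccnd3*, their kinases *Cdk4* and *Cdk6*, the cyclin-dependent kinase (CDK) inhibitors *Cdkn1a*, *Cdkn1b*, *Cdkn1c* and *Cdkn2c*, and *Rb1*. They were picked by name, as genes of the G1 phase of the cell cycle, and no threshold on their values was applied. All 10 were found among the 18381 genes of the deposited table, and all 10 passed the filter on low counts that left 14504 genes to test. The samples were first lower molars of wild type C57BL/6JOlaHsd mouse embryos at embryonic day 14 (E14), cultured in hanging drops for 6 h. One tooth of each embryo was given mouse recombinant IGF1, the insulin-like growth factor, in medium at 750 ng/ml, dissolved in PBS with bovine serum albumin. The other tooth received the same volume of PBS with albumin and is called the control. The 5 embryos are numbered 1, 2, 3, 4 and 6, so that 5 IGF1 teeth were compared with 5 control teeth, paired by embryo.

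D cyclins are made in response to growth factors and bind CDK4 or CDK6. The active kinases phosphorylate the retinoblastoma protein, the product of *Rb1*, which then releases E2F transcription factors and lets the genes of DNA replication be expressed. INK4 inhibitors such as p18 (*Cdkn2c*) bind CDK4 and CDK6 directly, whereas the Cip/Kip inhibitors p21 (*Cdkn1a*), p27 (*Cdkn1b*) and p57 (*Cdkn1c*) bind complexes of cyclins and CDKs. In the tooth, p21 is known as a marker of the enamel knot, the epithelial signalling centre that forms at the cap stage and does not divide.

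The control teeth had total counts of 2845773 to 8403151 and the IGF1 teeth of 3456634 to 8763113, and both teeth of embryo 1 had the lowest total of their group. Levels are given as CPM, counts scaled to the library total, after TMM normalization, which corrects libraries for their composition. Counts of the 10 genes ranged from 47 for *Cdkn2c* in the shallowest control tooth to 6255 for *Ccnd2*, so that counting error is largest for *Cdkn2c*. Calls rest on edgeR's quasi-likelihood test with the embryo as a block, at an adjusted p under 0.05 by Benjamini-Hochberg over all genes tested. By this rule 11.5% of the genes tested were called, 6.72% as higher and 4.76% as lower with IGF1. These are whole teeth, in which fewer cells of a type and less RNA per cell cannot be told apart.

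*Ccnd2*, *Cdk4* and *Cdkn1c* rose and *Cdk6* fell with IGF1, and the other 6 genes did not pass the threshold. The changes that passed were between 1.20-fold and 1.40-fold for the genes that rose, and *Cdk6* fell to 0.847 of its control level. Thus a cyclin, a kinase and an inhibitor were each higher in the treated teeth. Each of the 3 was higher in all 5 embryos, as were 13.0% of all genes tested, and *Cdk6* was lower in all 5, as were 11.2%. When the pairing by embryo was ignored, 1 of the 10 genes (*Cdkn1c*) and 6.12% of all genes passed. The median log2 fold change over the 10 genes was 0.20, compared to -0.0038 over all genes tested.

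**Figure D1:**
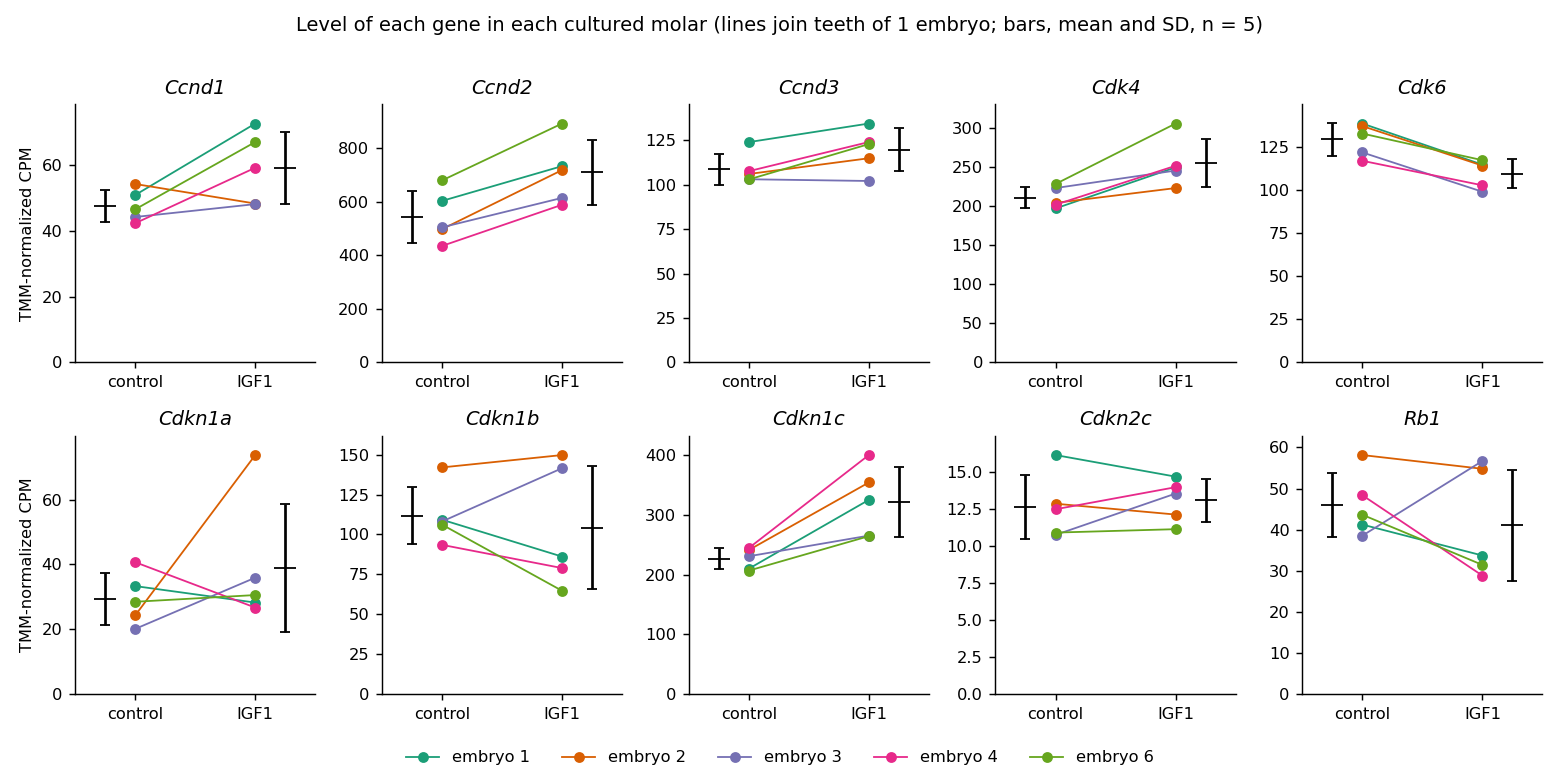
TMM-normalized CPM (y axes, from 0) of the 10 genes in the control and IGF1 tooth of each embryo, with a line joining both teeth of an embryo and black bars for the mean and SD of each group (n = 5). Lines rise in 5 of 5 embryos for Ccnd2, Cdk4 and Cdkn1c and fall in 5 of 5 for Cdk6. Those of the other genes run in both directions.

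Among the D cyclins, *Ccnd2* (ENSMUSG00000000184, GRCm38 chromosome 6, 127125162 to 127152193, minus strand) had the most counts. Its control teeth had 604, 498, 505, 435 and 680 CPM in embryos 1, 2, 3, 4 and 6. The IGF1 teeth of the same embryos had 734, 719, 615, 589 and 893 CPM. Each treated tooth was above its own control, but the groups overlapped, because the control tooth of embryo 6 was above the treated teeth of embryos 3 and 4. The log2 fold change was 0.39 (SE 0.066, adjusted p = 0.00405 in edgeR's test). The call held without any single embryo (adjusted p from 0.00520 to 0.0267), and was lost when the pairing was ignored (adjusted p = 0.120 with no replicate block).

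*Ccnd1* (ENSMUSG00000070348, chromosome 7, 144929931 to 144939925, minus strand), the D cyclin best known as a sensor of growth factors, did not pass. The control teeth had 50.8, 54.2, 44.2, 42.3 and 46.5 CPM, and the IGF1 teeth had 72.6, 48.3, 48.1, 59.1 and 67.0 CPM, in the same order of embryos. Treated teeth of embryos 1, 4 and 6 were above every control tooth, and that of embryo 2 was below its own control. Across embryos the log2 fold change was 0.29 with a 95% interval of 0.047 to 0.53 (SE 0.11, adjusted p = 0.119 in edgeR's test). Without embryo 2 it was 0.41 and past the threshold (adjusted p = 0.0280).

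*Ccnd3* (ENSMUSG00000034165, chromosome 17, 47505051 to 47599691, plus strand) lay between the other D cyclins in CPM. Its control teeth had 124, 106, 103, 108 and 103 CPM, and the IGF1 teeth had 134, 115, 102, 124 and 123 CPM. The groups overlapped, and the control tooth of embryo 1 was above the other control teeth. Its log2 fold change of 0.14 did not pass (95% interval -0.02 to 0.29, SE 0.068, adjusted p = 0.239).

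To ask whether the D cyclins differed in response, the log2 ratios within each embryo were subtracted. This was done for 7 pairs of genes, with an exact two-sided sign-flip permutation test that cannot go below p = 0.063 with 5 embryos. The ratio of *Ccnd2* was above that of *Ccnd3* in 5 of 5 embryos, by 0.25 on average (SD 0.11, exact p = 0.063, adjusted p = 0.219). *Ccnd1* was above *Ccnd3* in 4 of 5 embryos (mean difference 0.16, SD 0.26, exact p = 0.312). That mean was 0.0998 without embryo 1 and 0.27 without embryo 2. The difference between *Ccnd1* and *Ccnd2* was -0.09 (SD 0.37, exact p = 0.812), and it was 0.061 without embryo 2, so that its sign rested on that embryo.

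Of the kinases, *Cdk4* rose and *Cdk6* fell. *Cdk4* (ENSMUSG00000006728, chromosome 10, 127063534 to 127067920, plus strand) had 197, 204, 223, 202 and 228 CPM in the control teeth and 249, 223, 245, 251 and 305 CPM in the IGF1 teeth. All 5 embryos were higher with IGF1, and the groups overlapped because the treated tooth of embryo 2 was below the control tooth of embryo 6 and level with that of embryo 3. The log2 fold change was 0.27 (SE 0.068, adjusted p = 0.0285 in edgeR's test). It was no longer past the threshold without embryo 1, 4 or 6 (adjusted p = 0.0951, 0.107 and 0.123) or with no replicate block (0.101).

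*Cdk6* (ENSMUSG00000040274, chromosome 5, 3341485 to 3531008, plus strand) had 139, 137, 122, 117 and 133 CPM in the control teeth and 115, 114, 99.2, 103 and 117 CPM in the IGF1 teeth. It was lower in 5 of 5 embryos, with the smallest SD of log2 ratios (0.054) of the 10 genes, and the groups touched where the treated tooth of embryo 6 reached the control tooth of embryo 4. With IGF1 the log2 fold change of *Cdk6* was -0.24 (SE 0.064, adjusted p = 0.0345 in edgeR's test). The call was lost without any of the 5 embryos (adjusted p from 0.0634 to 0.0999), in DESeq2's Wald test (0.0545) and with no replicate block (0.125), while the fold change stayed between -0.26 and -0.23 in those fits.

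The response of *Cdk4* was above that of *Cdk6* in each embryo, by 0.61, 0.39, 0.44, 0.51 and 0.60 on the log2 scale in embryos 1, 2, 3, 4 and 6. The mean difference was 0.51 (SD 0.097), with the smallest p that the exact permutation test over 5 embryos can give (0.063, adjusted p = 0.219 over the 7 pairs). Scaled by exon length, *Cdk4* made up 87.5% ± 1.19 (SD, n = 5) of the summed level of both kinases in the control teeth. In the IGF1 teeth it made up 90.8% ± 0.993, and the share was higher in 5 of 5 embryos.

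The promoters of these kinases differ in sequence, and both are shown because the genes moved apart. The 250 bases before the start site are from RefSeq (GRCm38.p6), 5′ to 3′, with the letters CACGTG, the E-box bound by Myc and Max and by other basic helix-loop-helix factors, in capitals. The *Cdk4* sequence lies at chr10:127063285-127063534 and the *Cdk6* sequence at chr5:3343643-3343892, both on the plus strand. The *Cdk6* window lies inside the gene span given above (from 3341485), so its start site is not the first annotated start of that gene.
Cdk4: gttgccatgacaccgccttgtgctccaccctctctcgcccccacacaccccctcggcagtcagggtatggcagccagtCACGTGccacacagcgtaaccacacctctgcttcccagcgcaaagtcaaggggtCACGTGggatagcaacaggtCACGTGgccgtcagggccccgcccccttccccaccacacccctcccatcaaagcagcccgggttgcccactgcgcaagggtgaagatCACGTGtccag
Cdk6: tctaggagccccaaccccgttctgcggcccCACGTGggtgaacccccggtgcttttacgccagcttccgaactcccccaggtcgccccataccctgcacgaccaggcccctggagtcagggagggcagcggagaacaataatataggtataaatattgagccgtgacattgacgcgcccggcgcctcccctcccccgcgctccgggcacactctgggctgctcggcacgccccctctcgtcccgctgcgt

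The *Cdk4* window held 4 E-boxes, whose first bases lie at -172, -118, -98 and -11 from the start site, and the *Cdk6* window held 1, at -220. Of the windows of the other 4 genes, 1 window of *Cdkn2c* held 1 E-box, with its first base at 35, counted from 1 at the start site. Among 32851 RefSeq promoter windows of 300 bases (250 before and 50 after the start), 7.15% held at least 1 CACGTG, which reads the same on both strands, and 8 windows (0.0244%) held 4 or more. The E-box was singled out after the *Cdk4* window had been read. Windows were found for *Ccnd3*, *Cdk4*, *Cdk6*, *Cdkn1a*, *Cdkn1b* and *Cdkn2c* and not for *Ccnd1*, *Ccnd2*, *Cdkn1c* and *Rb1*. The E2F motifs TTTCCCGC and TTTGGCGC, searched on both strands, were in none of the 9 windows of these 6 genes and in 1.07% and 0.514% of all windows. The FoxO motif TGTTTAC was in 1 of 2 windows of *Ccnd3* and in 3.65% of all windows. The CRE motif TGACGTCA and the AP-1 motif TGANTCA (N, any base) were in none of the 9 windows and in 1.79% and 7.81% of all windows. The GC box GGGCGG occurred 3 times in the *Cdk4* window, not in that of *Cdk6*, and in 35.7% of all windows. It was also in windows of *Ccnd3*, *Cdkn1a*, *Cdkn1b* and *Cdkn2c*. A match is only a match of letters and says nothing of binding.

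Among the Cip/Kip inhibitors, *Cdkn1c* (ENSMUSG00000037664, chromosome 7, 143458339 to 143461050, minus strand), an imprinted gene, rose most clearly. Its control teeth had 210, 241, 231, 245 and 207 CPM, and the IGF1 teeth had 325, 355, 265, 401 and 265 CPM. The groups did not overlap, which held for 4.21% of all genes tested in this direction and for none of the other 9 genes. The log2 fold change was 0.49 (SE 0.082, adjusted p = 0.00345 in edgeR's test, higher in 5 of 5 embryos), the lowest adjusted p of the 10 genes. The call held without any single embryo (adjusted p up to 0.0222) and with no replicate block (0.0194).

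The genes whose profile over the 10 teeth was most like that of *Cdkn1c* were *Rrbp1*, *Zfyve21* and *Gla*, by the root mean square difference of log2 CPM after each gene was centred on its mean. The differences were 0.117, 0.125 and 0.127, where the median over 14503 genes was 0.384. Genes chosen for following *Cdkn1c* share its direction by that choice, and their values are only a description. The log2 fold change was 0.50 for *Rrbp1*, which encodes a ribosome-binding protein of the endoplasmic reticulum, 0.41 for *Zfyve21* and 0.40 for *Gla*, which encodes a lysosomal galactosidase. *Gla* did not pass the threshold (SE 0.16, adjusted p = 0.148), and the other two did (0.00437 and 0.0324).

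*Cdkn1a* (ENSMUSG00000023067, chromosome 17, 29090976 to 29100727, plus strand) varied most between embryos. The control teeth had 33.3, 24.3, 20.1, 40.7 and 28.5 CPM, and the IGF1 teeth had 28.2, 73.8, 35.9, 26.7 and 30.6 CPM. The treated tooth of embryo 2 was higher than every other tooth, and embryos 1 and 4 were lower with IGF1 than without. Across embryos *Cdkn1a* had a log2 fold change of 0.37 with a 95% interval of -0.20 to 0.95 (SE 0.26, adjusted p = 0.402), and it was not past the threshold in any of the 11 alternative fits (adjusted p from 0.169 to 0.943). It was 0.035 without embryo 2 and 0.64 without embryo 4, so that its size rested on single embryos.

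*Cdkn1b* (ENSMUSG00000003031, chromosome 6, 134920401 to 134925513, plus strand), a known target of FoxO factors, had 109, 142, 108, 93.5 and 106 CPM in the control teeth. Its IGF1 teeth had 86.1, 150, 142, 78.9 and 64.7 CPM. Thus embryos 1, 4 and 6 were lower with IGF1 and embryos 2 and 3 higher, and the treated teeth extended both below and above the control teeth. For *Cdkn1b* the log2 fold change was -0.15 (95% interval -0.44 to 0.14, SE 0.13, adjusted p = 0.509). It was -0.30 without embryo 3 and -0.019 without embryo 6.

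In comparison with *Cdkn1c*, the ratio of *Cdkn1b* was lower in 4 of 5 embryos (mean difference -0.66, SD 0.52, exact permutation p = 0.125). That of *Cdkn1a* was lower in 3 of 5 (mean -0.15, SD 0.99, exact p = 0.750), with a difference of 0.024 without embryo 1 and 0.14 without embryo 4. *Cdkn1a* was above *Cdkn1b* in 4 of 5 embryos (mean difference 0.50, SD 0.71, exact p = 0.188). That mean was 0.25 without embryo 2 and 0.72 without embryo 4. None of these differences passed, and with 5 embryos this permutation test cannot go below 0.063.

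The INK4 inhibitor *Cdkn2c* (ENSMUSG00000028551, chromosome 4, 109660876 to 109667189, minus strand) had 16.1, 12.9, 10.7, 12.5 and 10.9 CPM in the control teeth and 14.7, 12.1, 13.5, 14.0 and 11.1 CPM in the IGF1 teeth. The groups lay within the same range, and the log2 fold change was 0.071 (95% interval -0.22 to 0.36, SE 0.13, adjusted p = 0.777). It was -0.0046 without embryo 3 and 0.11 without embryo 1 or 2, so that its sign rested on embryo 3.

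*Rb1* (ENSMUSG00000022105, chromosome 14, 73183673 to 73325822, minus strand) had 41.2, 58.1, 38.5, 48.4 and 43.6 CPM in the control teeth and 33.7, 54.8, 56.7, 28.8 and 31.4 CPM in the IGF1 teeth. It was lower with IGF1 in 4 of 5 embryos and higher in embryo 3. Over the 5 embryos its log2 fold change was -0.19 (95% interval -0.53 to 0.15, SE 0.16, adjusted p = 0.489). Without embryo 3 it was -0.40 and past the threshold (adjusted p = 0.0496). Without embryo 4 it was -0.050 and not past the threshold (adjusted p = 0.891 in edgeR's test).

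**Figure D2:**
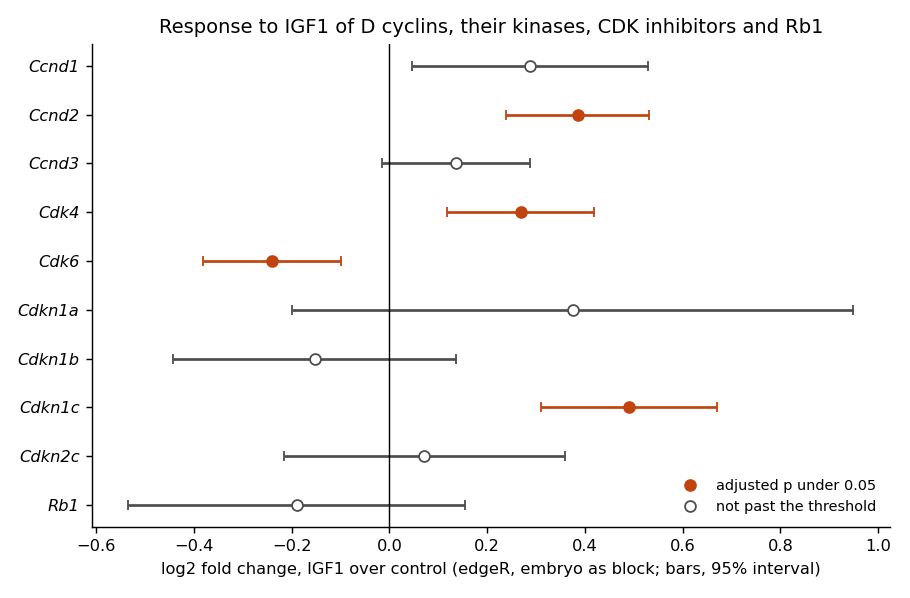
Log2 fold change of each gene with IGF1 (x axis) from edgeR's fit over all 10 teeth with embryo as a block, with 95% intervals as bars. Filled points passed an adjusted p of 0.05: Ccnd2 (0.39), Cdk4 (0.27) and Cdkn1c (0.49) to the right of 0 and Cdk6 (-0.24) to the left.

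Levels of different genes were compared as CPM per kb of exon, over all annotated exons of a gene. In the control teeth *Cdkn1c* was the highest of the 10 genes, at 111 ± 8.59 CPM per kb (SD, n = 5), above 98.2% of the genes tested. *Cdk4* (64.8 ± 4.28) and *Ccnd2* (57.9 ± 10.3) followed, and the ranges of these 2 genes overlapped. *Cdkn1b* had 24.6 ± 3.96, *Ccnd3* 12.4 ± 0.997 and *Ccnd1* 10.1 ± 1.04 CPM per kb, and these 3 did not overlap one another. *Cdk6* (9.27 ± 0.686), *Cdkn1a* (8.27 ± 2.26) and *Rb1* (7.64 ± 1.28) overlapped their neighbours in this order, and *Ccnd1* overlapped *Cdk6*. *Cdkn2c* was lowest, at 4.70 ± 0.810 CPM per kb.

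The order depended on the length used, above all for *Ccnd3*, whose annotated exons span 8775 bases in all and 2113 bases in its longest coding transcript. By the latter, *Ccnd3* had 51.5 CPM per kb and was above *Cdkn1b*, and *Cdkn1a* had 14.1 CPM per kb and was above *Ccnd1* (12.7) and *Cdk6* (11.2). *Ccnd2* made up the largest part of the summed D cyclin level by either length, 71.7% ± 3.34 (SD, n = 5) by all exons and 57.0% ± 4.19 by the longest coding transcript in the control teeth. With IGF1 the shares were 74.1% ± 3.06, higher in 4 of 5 embryos, and 60.6% ± 3.73, higher in 5 of 5. The share of *Ccnd3* was lower in 5 of 5 embryos by both lengths. Of the summed Cip/Kip level, *Cdkn1c* made up 77.2% ± 1.85 in the control teeth and 82.4% ± 5.81 in the IGF1 teeth. That share was higher in 4 of 5 embryos by all exons, with embryo 3 lower, and in 3 of 5 by the longest coding transcript.

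Some exons are shared with a gene on the other strand, and strand use in the counting is not given in the sources used here, so reads of such pairs cannot be told apart there. *Cdk4* shares 641 of its 3249 exonic bases with *Tspan31*, which also rose (log2 fold change 0.31, SE 0.074, adjusted p = 0.0204) from a mean of 46.1 to 57.2 CPM. *Ccnd1* shares 1100 of 4709 bases with *LTO1* (log2 fold change -0.0064, adjusted p = 0.981). *Ccnd3* shares 361 bases with *Bysl* (0.32, adjusted p = 0.155). *Rb1* shares 408 bases with *Lpar6* (-0.26, adjusted p = 0.0979) and 488 with *Rcbtb2* (-0.0099, adjusted p = 0.957).

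The log2 ratios of *Cdkn1a*, *Cdkn1b* and *Rb1* within embryos were the most spread of the 10 genes, with SDs of 0.88, 0.42 and 0.49. The median SD was 0.21 over the 11352 genes with a mean log2 CPM of at least 3, and the 90th percentile was 0.41. The ratios of *Cdkn1a* were -0.24, 1.59, 0.83, -0.60 and 0.10 in embryos 1, 2, 3, 4 and 6. In embryos 2 and 3 the ratios of *Cdkn1a*, *Cdkn1b* (0.077 and 0.39) and *Rb1* (-0.085 and 0.55) were the highest of the 5 embryos. In the same embryos those of *Ccnd1* (-0.17 and 0.12), *Ccnd3* (0.116 and -0.014) and *Cdk4* (0.13 and 0.14) were the lowest, although embryo 1 was close to embryo 2 for *Ccnd3* (0.117). *Ccnd2*, *Cdk6*, *Cdkn1c* and *Cdkn2c* showed no such order.

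The median ratio of genes of the hypoxia response was also highest in embryos 2 and 3. Among the other embryos it was highest in embryo 4, where *Cdkn1a* and *Rb1* were lowest. Embryos 2 and 3 were set apart after the ratios had been seen. The share of all genes with such a split was not counted. Of 13 hypoxia genes tested, 12 rose with IGF1 and 0 fell, where 6.72% of all genes tested rose. Their median log2 ratio was 2.37 in both embryos 2 and 3, against 0.54, 0.94 and 0.79 in embryos 1, 4 and 6. Their summed level ran from 933 to 1416 CPM in the control teeth and from 1779 to 5939 CPM in the IGF1 teeth. *Car9* did not pass the filter on low counts. The part of this response in the ratios of *Cdkn1a*, *Cdkn1b*, *Rb1*, *Ccnd1*, *Ccnd3* and *Cdk4* was not tested.

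**Figure D3:**
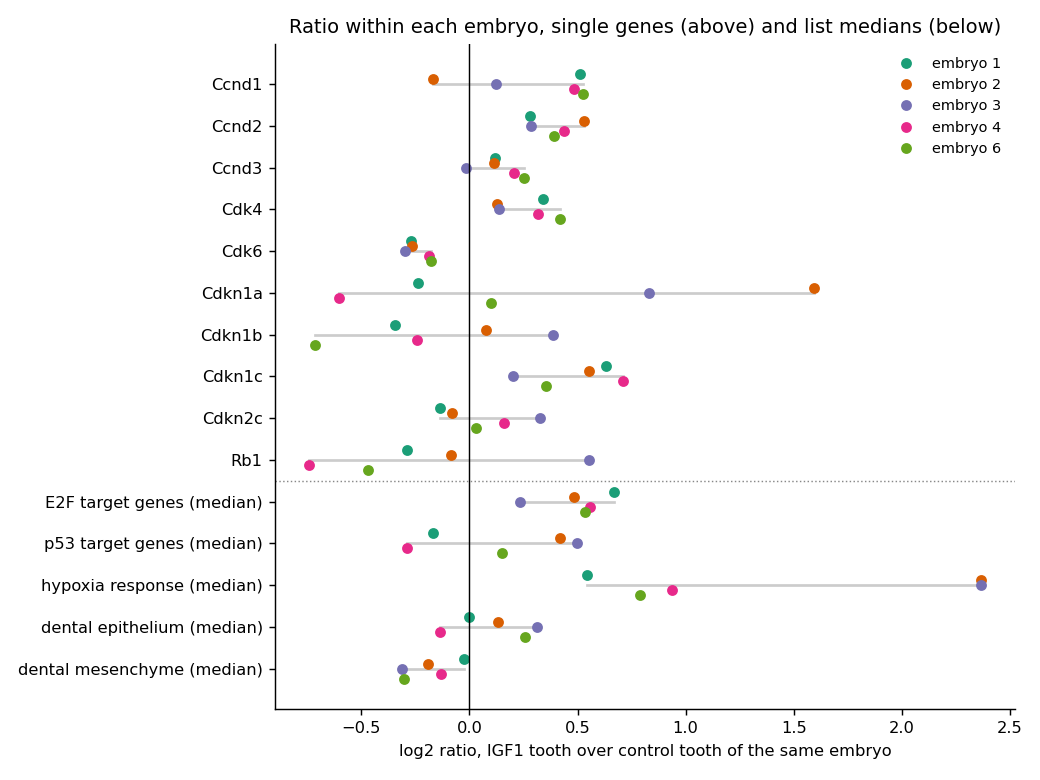
Log2 ratio of the IGF1 tooth over the control tooth within each embryo (x axis, 1 coloured point per embryo, set apart vertically for legibility) for the 10 genes, and, below the dotted line, the median ratio of 5 gene lists. Ratios of Cdkn1a run from -0.60 in embryo 4 to 1.59 in embryo 2, while those of Cdk6 stay between -0.30 and -0.18, and the hypoxia medians of embryos 2 and 3 are both at 2.37.

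Next, the partners that act with or after the D cyclins were examined. Of 8 genes of the E and A cyclins, CDK2 and its activators, 3 rose and 0 fell, where 6.72% of all genes tested rose. *Ccne1*, cyclin E1, rose from 13.2 ± 1.41 to 27.6 ± 7.12 CPM (SD, n = 5), with a log2 fold change of 1.00 (SE 0.17, adjusted p = 0.00349). *Ccne2*, cyclin E2, rose from 17.5 ± 6.57 to 35.6 ± 3.82 CPM (1.05, SE 0.17, adjusted p = 0.00313). In both genes each treated tooth was above every control tooth, which held for 4.21% of all genes tested and for no other gene of this list. *Cdk2*, the kinase that cyclin E binds, had 0.36 (adjusted p = 0.0129), which was not past the threshold without embryo 4 (0.0510) or 6 (0.0586) or with no replicate block (0.0516). *Ccna2*, cyclin A2, had a log2 fold change of 0.13 and did not pass (adjusted p = 0.330).

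Among 12 pocket proteins and E2F/DP factors other than *Rb1*, 6 rose and 0 fell, where 6.72% of all genes tested rose. The median log2 fold change of the list was 0.27. The activator *E2f1* had 0.56 (SE 0.10, adjusted p = 0.00646) and *E2f2* had 0.84 (SE 0.16, adjusted p = 0.00659). *Tfdp1*, which encodes the partner DP1, had 0.41 (SE 0.070, adjusted p = 0.00404). The repressor *E2f8* had 0.57 (SE 0.10, adjusted p = 0.00574), and *E2f7* had 0.38 (adjusted p = 0.0174), lost without embryo 2 (0.0587) or 6 (0.0815). *E2f3* (0.31, adjusted p = 0.0433) was lost without embryo 1, 2, 4 or 6 (0.0572 to 0.169), with no filter on low counts (0.0564), in DESeq2's Wald test (0.0837) and with no replicate block (0.0787). The pocket proteins *Rbl1* (0.23, adjusted p = 0.116) and *Rbl2* (-0.16, adjusted p = 0.240) did not pass.

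Of 20 E2F target genes of replication licensing and nucleotide supply, 15 rose and 0 fell, where 6.72% of all genes tested rose. All 20 had a positive log2 fold change, with a median of 0.46. The 6 with the lowest adjusted p were *Rrm2*, *Cdc6*, *Uhrf1*, *Pcna*, *Tk1* and *Tyms*. *Rrm2*, a subunit of ribonucleotide reductase, rose from a mean of 46.5 to 84.3 CPM (log2 fold change 0.84, SE 0.091, adjusted p = 0.000279). *Cdc6*, which loads the MCM helicase, rose from 19.4 ± 4.89 to 35.0 ± 7.12 CPM (0.85, SE 0.10, adjusted p = 0.000520). For the other 4 the log2 fold change was between 0.55 for *Tyms* and 0.74 for *Uhrf1*. The teeth of the groups did not overlap for any of these 6 genes, as for 4.21% of all genes tested in this direction. Leaving out an embryo left 11 to 15 of the 20 called. The median log2 ratio of the list was above 0 in each embryo and lowest in embryo 3 (0.67, 0.49, 0.23, 0.56 and 0.53 in embryos 1, 2, 3, 4 and 6).

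Of 15 genes for the turnover of D cyclins and p27, 2 rose and 0 fell, a share near the 11.5% called over all genes, and 1 to 3 were called when an embryo was left out. *Skp2*, the F-box protein that marks p27 for destruction, had a log2 fold change of 0.39 (SE 0.091, adjusted p = 0.0207), which was lost without embryo 1 (0.0687), 4 (0.0863) or 6 (0.0825) and with no replicate block (0.0746). *Dtl*, the substrate receptor of a ubiquitin ligase that acts on p21, had 0.41 (SE 0.071, adjusted p = 0.00424). *Gsk3b*, a kinase that primes cyclin D1 for export and breakdown, had 0.15 and did not pass (adjusted p = 0.236). None of the other CDK inhibitors passed: of the 3 tested, *Cdkn2d* (p19) had the lowest p, with a log2 fold change of 0.46 (unadjusted p = 0.0188, adjusted p = 0.102 in edgeR's test). With the 0 calls among these 3 genes, 1 had an unadjusted p under 0.05, and the other tests also called 0. *Cdkn2a* did not pass the filter on low counts.

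The p53 target genes, which often move with *Cdkn1a*, had 1 gene higher and 1 lower among 17 tested, a share near the 11.5% called over all genes. *Ccng1*, cyclin G1, had a log2 fold change of 0.60 (SE 0.15, adjusted p = 0.0244) and was higher in 4 of 5 embryos, most in embryos 2 (0.97) and 3 (1.16). It was not past the threshold without embryo 1, 2, 3 or 6 (adjusted p from 0.0510 to 0.0809), in DESeq2's Wald test (0.0575) or with no replicate block (0.0916). *Fas*, which encodes a death receptor, fell from 8.85 ± 0.903 to 4.36 ± 1.84 CPM (-1.06, SE 0.20, adjusted p = 0.00736). *Mdm2*, the p53 target that encodes its ubiquitin ligase, had -0.06 and did not pass (adjusted p = 0.774). The median log2 ratio of the list was -0.17, 0.42, 0.50, -0.29 and 0.15 in embryos 1, 2, 3, 4 and 6, again with embryos 2 and 3 on top. Without embryo 4, 4 of the 17 genes were called, where 6.8% of all genes were.

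Of 21 transcription factors known to act on D cyclin or CDK inhibitor genes, 0 rose and 5 fell. Over all genes tested, 4.76% were called lower. *Myc*, whose product binds E-boxes, fell from 44.3 ± 7.79 to 30.3 ± 4.01 CPM (log2 fold change -0.55, SE 0.094, adjusted p = 0.00389). *Mycn* had -0.74 (SE 0.15, adjusted p = 0.00976, lost with no replicate block at 0.163) and *Egr1*, an immediate early factor, had -0.56 (SE 0.077, adjusted p = 0.00116). *Lef1*, a nuclear effector of Wnt signalling, had -0.54 (SE 0.082, adjusted p = 0.00219). *Foxo4* had -0.36 (adjusted p = 0.0138), lost without embryo 4 (0.0570) or with no replicate block (0.0728), whereas *Foxo1* (0.11, adjusted p = 0.481) and *Foxo3* (0.081, adjusted p = 0.732) did not pass. The median of the list was -0.17.

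**Figure D4:**
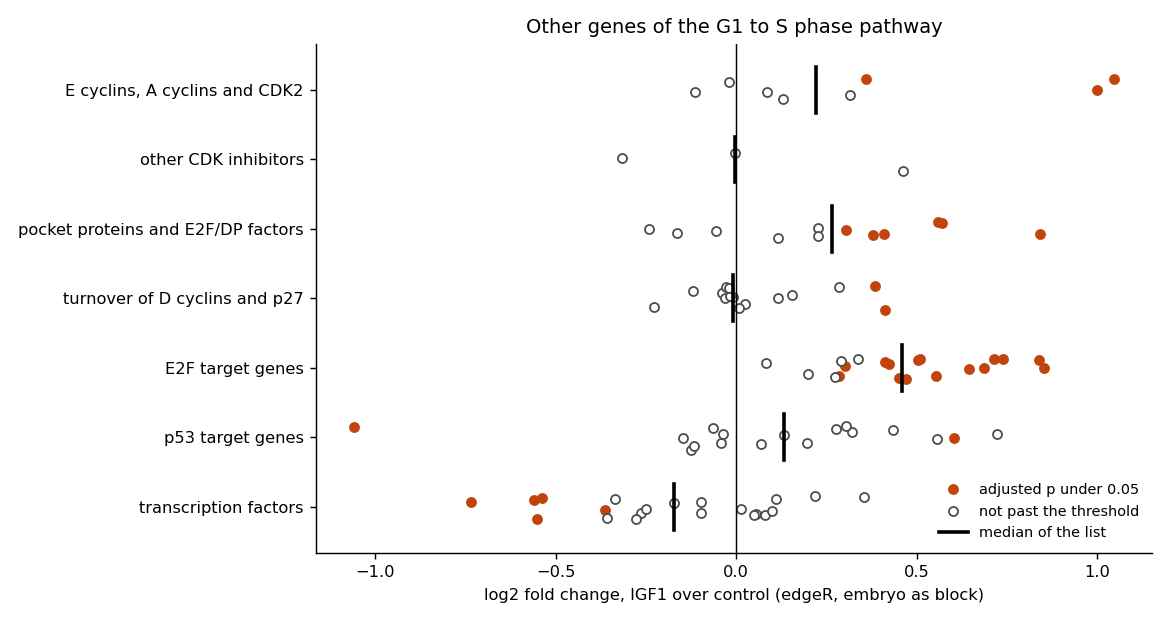
Log2 fold change with IGF1 (x axis) of each tested gene in 7 lists of the G1 to S phase pathway, 1 point per gene, with filled points past an adjusted p of 0.05 and a black bar at each list's median. The E2F target genes lie to the right of 0 with a median of 0.46, and the 5 filled transcription factors lie to the left of 0.

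The tissue was checked against its markers. Dental epithelium markers summed to between 2339 and 3596 CPM in the control teeth and between 2658 and 3695 CPM in the IGF1 teeth, and 1 of 15 rose (*Krt5*) and 0 fell. Dental mesenchyme markers summed to between 7916 and 9986 CPM in the control teeth and between 7162 and 9704 CPM in the IGF1 teeth, with 0 of 16 higher and 5 lower, and their median log2 ratio was below 0 in each embryo. Enamel knot genes, among which *Cdkn1a* is usually counted, had 1 of 18 higher (*Slit1*) and 4 lower (*Shh*, *Fgf3*, *Bmp2* and *Sostdc1*). The other 13, with *Bmp4*, *Bmp7*, *Msx2* and *Foxi3* among them, did not pass. Their list had summed levels of 447 to 645 CPM in the control teeth and 308 to 527 CPM in the IGF1 teeth. Erythroid genes had 5 of 6 lower and 0 higher, with sums of 849 to 1422 CPM and 604 to 1109 CPM. Endothelial genes had 1 of 7 lower, macrophage genes 1 of 6 lower, neuronal and Schwann genes 1 of 3 higher and cartilage genes 1 of 3 higher. Over all genes tested, 6.72% were called higher and 4.76% lower. A single call in a short list cannot be set apart from these shares. Of the defining muscle genes *Myod1*, *Myog* and *Myf5*, none passed the filter on low counts. The muscle genes *Des* and *Actc1* were tested and did not pass the threshold, and the muscle list summed to between 8.18 and 20.6 CPM in the control teeth and between 6.66 and 41.5 CPM in the IGF1 teeth, with a median log2 ratio from -1.85 in embryo 3 to 1.36 in embryo 1. The part of these marker values in the changes of *Ccnd2*, *Cdk4*, *Cdk6* and *Cdkn1c* was not tested.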

How the data were processed

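RNA of single cultured molars was sequenced. Per the labels, the authors used FastQC 0.11.8, Trimmomatic 0.39, Salmon 0.99.0 and DESeq2 with the mouse build GRCm38, and deposited estimated counts per gene, not normalized. The roles of these tools beyond their names, the transcript annotation and strand use are not given in the sources used here. The deposited values are whole numbers (0 exceptions), so rounding changed none. Genes had at least 10 counts over all samples. Of the identifiers, 18287 of 18381 were matched to GENCODE M21 (GRCm38), from which symbols, positions and exon lengths were taken. Salmon divides reads shared by similar transcripts, so counts of overlapping genes are estimates. Total counts ran from 2845773 to 8763113 per tooth, which limits low genes most in embryo 1.

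From the counts, edgeR 4.0.16 (R 4.3.3) was run with filterByExpr, TMM and the quasi-likelihood test with embryo as a block, and p-values were adjusted by Benjamini-Hochberg over 14504 genes. Standard errors were taken from the fold change and the F statistic. Embryos pair the teeth because the labels give 1 tooth of each embryo to each treatment. Deviations from the group means correlated at 0.319, 0.208, -0.0389, 0.170 and 0.313 within embryos 1, 2, 3, 4 and 6. For embryos 2 and 3 the highest correlation with the oppositely treated tooth of another embryo (0.232 and 0.0815) was above these. No libraries were duplicates (chi-square per degree of freedom at least 4.52). Ratios within embryos used log2 CPM with a prior of 2 counts. Fits were tested on simulated data, and no outcome of that test is given or used here. Alternatives were DESeq2 size factors, DESeq2 1.42.0, limma-voom 3.58.1, other filters, no replicate block and leaving out each embryo. The genes, lists and tests were chosen with earlier results of these data known. From each list the genes past the threshold were named, at most the 6 with the lowest adjusted p, or else the gene with the lowest p, with the 3 genes most like the one of lowest adjusted p, and further genes given by value were chosen after their values were seen.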

Additional observations from a re-analysis of the deposited data

Results flagged for a closer look

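Of the 20 groups of 5 teeth (10 genes in each of 2 treatments), 2 had a tooth whose gap to the nearest other tooth was above 0.71 of the whole range of the group, where chance gives about 1 in 20. For *Ccnd3*, the control tooth of embryo 1 had 124 CPM against 103 to 108 CPM in the other control teeth (ratio 0.778). For *Cdkn1a*, the IGF1 tooth of embryo 2 had 73.8 CPM against 26.7 to 35.9 CPM in the other treated teeth (ratio 0.804).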

How the results depend on the processing

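With no replicate block, 887 genes changed in place of 1666. Of the 10 genes, 1 was then called in place of 4. *Cdkn1c* stayed past the threshold and *Ccnd2* (0.38), *Cdk4* (0.27) and *Cdk6* (-0.24) did not. Among the called genes named from the pathway lists, the call was also lost for *Cdk2*, *E2f3*, *Skp2*, *Ccng1*, *Mycn* and *Foxo4*. Calls of marker genes were not compared between fits. Without the block, the turnover genes had 1 call and the transcription factors 3. DESeq2's Wald test gave *Cdk6* -0.24, not past the threshold. Leaving out an embryo gave 986 to 1602 changed genes and 2 to 4 calls among the 10 genes. The turnover genes then had 1 to 3 calls and the p53 targets 1 to 4. The log2 fold changes ran from 0.23 to 0.30 for *Cdk4*, from -0.26 to -0.23 for *Cdk6*, from 0.22 to 0.41 for *Ccnd1*, from 0.035 to 0.64 for *Cdkn1a*, from -0.30 to -0.019 for *Cdkn1b*, from -0.0046 to 0.11 for *Cdkn2c* and from -0.40 to -0.050 for *Rb1*. The difference between *Ccnd1* and *Ccnd2* then ran from -0.17 to 0.061, and that between *Cdkn1a* and *Cdkn1c* from -0.45 to 0.14. Leaving out an embryo lowered the count over all genes each time, but some list counts rose. Thus the p53 targets had 4 calls in place of 2 without embryo 4, and the transcription factors 7 in place of 5 without embryo 2. Over all genes tested, 6.8% were called without embryo 4 and 8.17% without embryo 2. The cause of these moves was not tested. Of 110 values of the 10 genes under alternatives, 95 kept direction and side of the threshold. Per kb of the longest coding transcript, control levels were 103 for *Cdk4*, 86.0 for *Ccnd2*, 51.5 for *Ccnd3*, 12.7 for *Ccnd1*, 11.2 for *Cdk6*, 14.1 for *Cdkn1a* and 9.87 CPM for *Rb1*.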
